A study of Homo sapiens with 30 samples.

Results

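The comparison described here set a high particle dose against a low one, 1 h after the particles were added to a model of the gut lining. The model was a co-culture of Caco-2 cells, a human colorectal carcinoma line that takes on features of absorptive enterocytes, and HT29-MTX cells, a methotrexate-selected human colon carcinoma line that secretes mucus. The lines were mixed at 75% and 25% from pooled flasks and kept for 14 days on porous inserts. Either multi-walled carbon nanotubes (MWCNT) or titanium dioxide nanobelts (TiO2-NB) in medium were then placed on the apical side. Of the 30 arrays of the series, 12 enter the comparison: 6 at 100 µg/ml (3 with MWCNT and 3 with TiO2-NB) and 6 at 10 µg/ml (likewise 3 and 3). They were chosen by their titles alone, and the particle was kept as a covariate. The 3 control wells of 1 h, which had fresh medium and no particles, give the level without particles at that time and were in no dose test. A further 12 exposed arrays of 24 h gave the same dose comparison at the later time.

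An epithelium senses particles at its apical face through contact with membrane and receptors, uptake into vesicles and the stress pathways that these feed. The earliest transcripts to move are usually immediate early genes, which need no new protein to be switched on, and short-lived messages such as those of stress regulators and cytokines. Whether such transcripts are graded with the amount of particle or already at their limit at the low dose is what a comparison of doses can show. The values are log2 levels, so a difference of 1 is a doubling. Bulk RNA of a co-culture gives 1 level for both lines, so fewer cells of a type and less RNA per cell cannot be told apart.

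No transcript differed between 100 and 10 µg/ml at 1 h after adjustment for the number of tests. In limma, with dose and particle in the model, 0 of 22215 probe sets (0%) had an adjusted p under 0.05, and the smallest adjusted p was 0.354. At an unadjusted p under 0.05 there were 1279 (5.76%), of which 614 (2.76%) were higher and 665 (2.99%) lower at 100 µg/ml. Over 1 probe set per gene 686 of 11963 genes (5.73%) were there, 318 higher (2.66%) and 368 lower (3.08%). An exact permutation of the dose labels within each particle, with 400 labelings, also left 0 probe sets (0%) after adjustment. It put 110 probe sets at its smallest p, 0.005. The p-values measure the spread between wells that the labels call biological replicates.

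The differences were also small in size. The median absolute dose difference over all probe sets was 0.038, the 95th percentile was 0.13, and the median standard error was 0.053. Only 57 probe sets differed at least 1.2-fold and 1 at least 1.5-fold. For 20138 probe sets (90.7%) the whole 95% interval of the dose difference lay within 1.2-fold in either direction, and for 22181 (99.8%) within 1.5-fold. A dose effect of 1.5-fold or more therefore lay outside the interval for nearly every probe set on the array.

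The response to the particles themselves was larger than the step between doses. Against the control of 1 h, with all 30 arrays in the fit, limma called 1435 probe sets (6.46%) with MWCNT and 1742 (7.84%) with TiO2-NB at 10 µg/ml. At 100 µg/ml it called 1729 (7.78%) and 1872 (8.43%). These 4 comparisons share the same 3 control arrays. The median absolute difference of 10 µg/ml from the control, averaged over the particles, was 0.068, and 31 probe sets reached 1.5-fold. The 18S ribosomal RNA signal, a measure of RNA quality, also differed between control and exposed wells. Its control mean of 8.37 was below the means of the 4 exposed groups, 8.81 to 9.30, and for 28S the control mean was 8.79 and the exposed means 8.90 to 8.99. The part of these signals in the differences from the control was not tested. Replicate 3 of TiO2-NB at 10 µg/ml had the lowest 18S of the 15 arrays, 8.12 against 8.94 and 9.47 in its group. For list medians that leaving out this array moved, the value without it or the range with 1 array left out is also given. Group means, medians of 1 particle and dose differences of single genes include it. The part of its RNA quality was not tested. Between the doses 18S differed by 0.11 (exact permutation p = 0.66) and 28S by -0.015 (exact p = 0.815). The 3′ minus 5′ signal of GAPDH and ACTB differed by -0.00018 (exact p = 0.98) and -0.0077 (exact p = 0.84).

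Some transcripts far from the control had a nearly flat dose step, and others did not. The genes described next are part of a list of 38 measured genes already known from the same arrays to respond at 1 h, so their distance from the control is no independent evidence. FAM13A, the one with the largest difference from the control at 10 µg/ml among the 38 and which carries a RhoGAP domain, had a median of 11.03 and a highest level of 11.32 on the control arrays. It was at 9.47, 9.83 and 10.00 (lowest, median and highest of 6 arrays) at 10 µg/ml and at 9.68, 9.86 and 10.22 at 100 µg/ml. The exposed arrays of both doses overlapped and all lay below the lowest control. The dose difference was 0.12 ± 0.066 (SE, limma adjusted p = 0.861). That is near the 95th percentile of 0.13 over all probe sets, so the step on this probe set was not among the flat ones. The other probe sets of FAM13A gave smaller steps, 0.053 ± 0.087 and 0.016 ± 0.048.

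NFKBIA, the inhibitor that holds NF-kB in the cytoplasm and is itself a target of NF-kB, was at 9.93, 10.01 and 10.11 in the controls. It was at 9.34, 9.40 and 9.47 at the low dose and at 9.30, 9.40 and 9.50 at the high dose. The medians of the doses were equal to 2 decimals and the dose difference was -0.016 ± 0.041, with a 95% interval from -0.10 to 0.073. TIGAR, a fructose bisphosphatase that limits glycolysis, showed the same flatness above the control. Its controls were at 8.41, 8.47 and 8.57, its 10 µg/ml arrays at 8.97, 9.10 and 9.16 and its 100 µg/ml arrays at 8.98, 9.08 and 9.16. The dose difference was 0.0063 ± 0.046.

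KANK1, which links adhesions to the actin cortex, stood 0.030 ± 0.056 higher at 100 than at 10 µg/ml, and TNFAIP3, a ubiquitin-editing brake on NF-kB, stood 0.036 lower (-0.036 ± 0.037). PPARG, a nuclear receptor of lipid metabolism, differed by -0.012 ± 0.051. PCK1, a control point of gluconeogenesis, had a wider error, 0.13 ± 0.11. BHLHE40, DDIT4, CXCL8 and EGR1 stood farther from the control than NFKBIA, TIGAR and TNFAIP3 and had larger dose differences, 0.21, 0.21, 0.29 and 0.26. Of the 38 genes 0 passed the adjusted test, 26 lay above 0 and 12 below. At an unadjusted p under 0.05, 6 were higher and 1 was lower, beside 2.66% and 3.08% of all genes. The median difference was 0.045, against -0.0011 over all genes, and it was 0.029 without TiO2-NB 100 replicate 3.

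**Figure D1:**
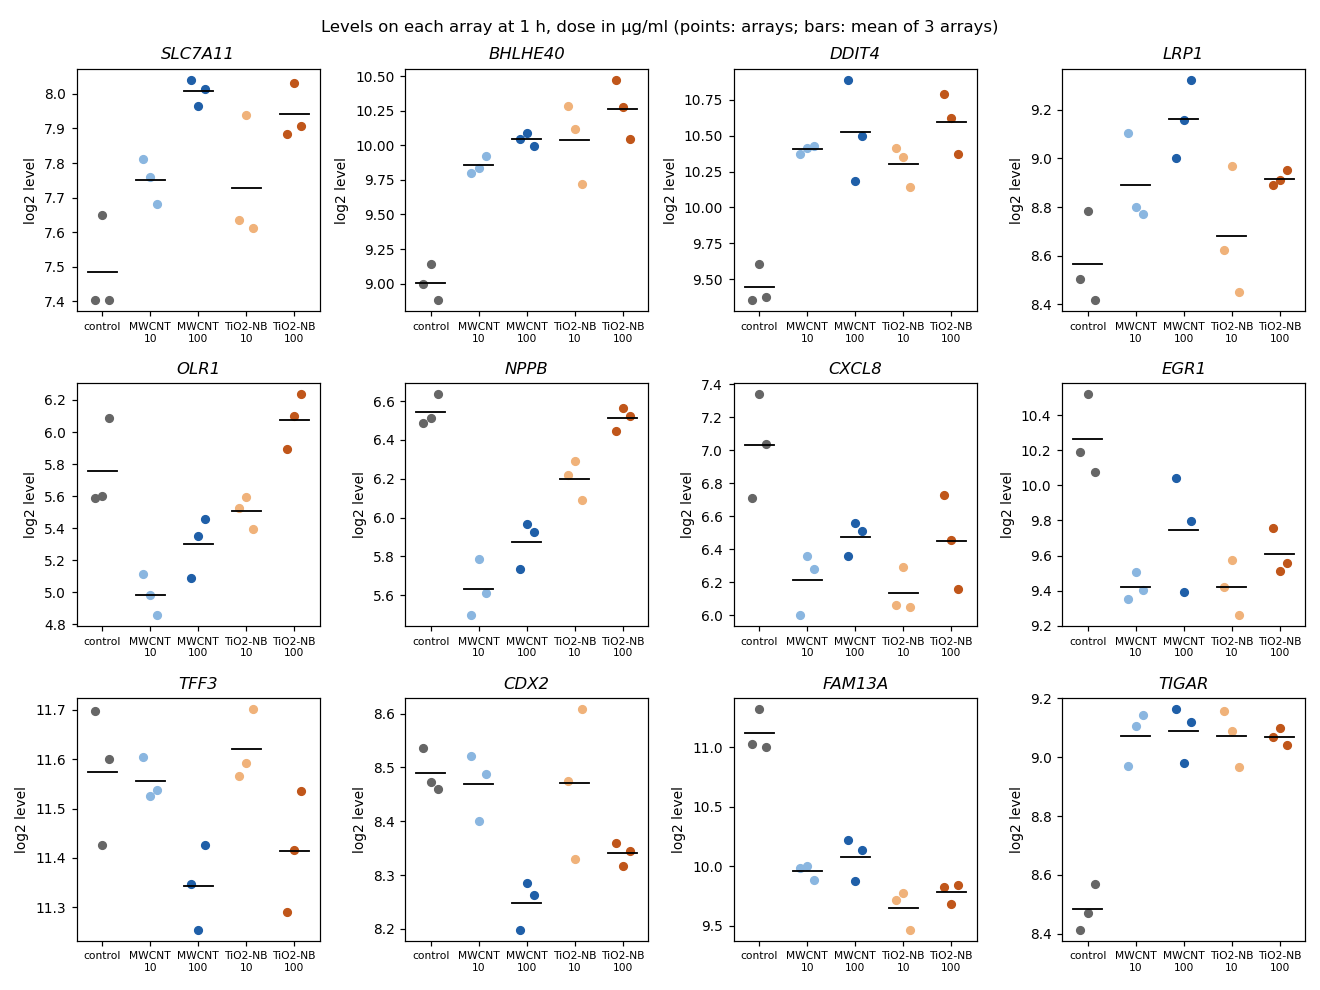
Log2 level (y axis, a separate scale for each gene) of 12 genes on the 15 arrays of 1 h, by group (control, MWCNT and TiO2-NB at 10 and 100 µg/ml); points are arrays and bars the mean of 3. FAM13A and TIGAR stand apart from the control at both doses with overlapping dose groups, while the means of OLR1 and NPPB lie higher at 100 than at 10 µg/ml within each particle and those of TFF3 and CDX2 lower; 0 of the 12 passed the adjusted dose test.

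Genes whose level at 100 µg/ml lay beyond that at 10 µg/ml, farther from the control, included a cystine importer, stress regulators and an endocytic receptor. SLC7A11, the cystine importer that feeds glutathione synthesis, was at 7.40, 7.40 and 7.65 on the control arrays. It was at 7.61, 7.72 and 7.94 at 10 µg/ml and at 7.88, 7.99 and 8.04 at 100 µg/ml, where 1 array of the low dose reached into the high group. The dose difference was 0.23 ± 0.056, a 1.18-fold difference, with a 95% interval from 0.11 to 0.35 (limma adjusted p = 0.795). A second probe set of SLC7A11 gave 0.25 ± 0.060 and the third, at a lower level, gave -0.089 ± 0.068.

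BHLHE40, a transcriptional repressor of the circadian clock and of hypoxia, had controls from 8.88 to 9.14. The 10 µg/ml arrays were at 9.72, 9.88 and 10.29 and the 100 µg/ml arrays at 9.99, 10.07 and 10.48, so the dose groups overlapped and both were clear of the control. The difference was 0.21 ± 0.088 (limma adjusted p = 0.854). A second BHLHE40 probe set, at a lower level, gave 0.082 ± 0.064. DDIT4, a stress-induced inhibitor of mTORC1, gave 0.21 ± 0.11, with medians of 9.37 in the control, 10.39 at 10 and 10.56 at 100 µg/ml. CHAC1, which degrades glutathione and is a target of ATF4, gave 0.22 ± 0.11.

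LRP1, a large endocytic receptor, had medians of 8.50, 8.79 and 8.98 in the control and at the rising doses, with a dose difference of 0.25 ± 0.086. ELL2, a factor for transcript elongation, gave 0.19 ± 0.046 (medians 6.33, 6.51 and 6.75), while its second probe set, at a lower level, gave -0.14 ± 0.038. The kinase scaffold AKAP12 was at 5.67 to 5.91 at 10 and at 5.92 to 6.14 at 100 µg/ml, without overlap, and differed by 0.20 ± 0.051 (adjusted p = 0.849). ZNF354A, a zinc finger gene, gave 0.19 ± 0.040. LIPG, an endothelial-type lipase, gave 0.12 ± 0.044 on the same side.

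For NPPB, UTS2, CXCL8 and EGR1 the mean at 100 µg/ml lay between that at 10 µg/ml and the control with either particle. For OLR1 it did so with MWCNT, -0.46 from the control after -0.78, and passed the control with TiO2-NB, 0.32 after -0.26. OLR1, a scavenger receptor for oxidised lipoprotein, had the smallest p of the 24 genes named for the pooled comparison. It was at 5.59, 5.60 and 6.09 on the control arrays, at 4.86, 5.25 and 5.60 at 10 µg/ml and at 5.09, 5.68 and 6.24 at 100 µg/ml. The dose groups overlapped over the particles and, by 1 array of each dose, within MWCNT, but not within TiO2-NB. The step was 0.32 for MWCNT and 0.57 for TiO2-NB. Pooled, the difference was 0.44 ± 0.082, or 1.36-fold, with a 95% interval from 0.27 to 0.62 (limma adjusted p = 0.618, exact permutation p = 0.01).

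NPPB, which encodes the B-type natriuretic peptide, was at 6.49, 6.51 and 6.64 in the controls, at 5.50, 5.94 and 6.29 at 10 µg/ml and at 5.73, 6.20 and 6.56 at 100 µg/ml. Its difference was 0.28 ± 0.058 (limma adjusted p = 0.735), with 0.24 for MWCNT and 0.31 for TiO2-NB. The chemokine CXCL8 had medians of 7.04 in the control, 6.17 at 10 and 6.48 at 100 µg/ml and differed by 0.29 ± 0.091. Its second probe set gave 0.32 ± 0.076.

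EGR1, an immediate early zinc finger factor, was at 10.08, 10.19 and 10.52 in the controls, at 9.26, 9.41 and 9.57 at 10 µg/ml and at 9.39, 9.66 and 10.04 at 100 µg/ml. All 12 exposed arrays lay below all 3 controls and the dose groups overlapped. The difference was 0.26 ± 0.095 (adjusted p = 0.854). UTS2, the precursor of the vasoactive peptide urotensin II, gave 0.45 ± 0.11 at a low level (medians 4.47 in the control, 3.68 at 10 and 4.11 at 100 µg/ml), and its second probe set gave 0.068 ± 0.067.

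The rule for the pooled comparison named 12 genes in each direction by the smallest p, since none passed. Besides OLR1, NPPB, SLC7A11, ELL2, UTS2, AKAP12 and ZNF354A, the higher side held GNA14, a G protein alpha subunit that couples receptors to phospholipase C, at 0.22 ± 0.045. TRAF5, an adaptor of TNF receptors, gave 0.28 ± 0.066 and ITPR1, the calcium release channel of the endoplasmic reticulum, gave 0.23 ± 0.055. The other probe sets of ITPR1 gave 0.058 ± 0.064 and 0.14 ± 0.071. GNAT2, the cone transducin subunit, and KRT12, a corneal keratin, gave 0.20 ± 0.049 and 0.24 ± 0.061 at array levels near 3.3. The adjusted p of the 24 genes lay between 0.618 and 0.854.

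On the lower side the goblet cell peptide TFF3, which is secreted with mucus and aids repair of the epithelium, was at 11.53, 11.58 and 11.70 at 10 µg/ml and at 11.25, 11.38 and 11.54 at 100 µg/ml. The control arrays were at 11.43, 11.60 and 11.70. Only 1 array of the high dose, a TiO2-NB one, reached into the range of the low dose, and the difference was -0.21 ± 0.047 (limma adjusted p = 0.735), the same for both particles (-0.21 each). TFF2, its mucus-associated relative, gave -0.12 ± 0.035.

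CDX2, the homeobox factor that sets intestinal identity, was at 8.33, 8.48 and 8.61 at 10 µg/ml and at 8.20, 8.30 and 8.36 at 100 µg/ml, with controls at 8.46, 8.47 and 8.54. The difference was -0.18 ± 0.047 (adjusted p = 0.854). ATP2B2, a calcium pump of the plasma membrane, was at 5.44 to 5.55 at 10 and 5.23 to 5.43 at 100 µg/ml without overlap, and differed by -0.17 ± 0.036. Its other probe sets, at lower levels, gave 0.013 ± 0.11 and -0.047 ± 0.053. SETMAR, a histone methyltransferase fused to a transposase, gave -0.17 ± 0.037.

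The antisense transcript MCF2L-AS1 gave -0.19 ± 0.041, GPRASP3 gave -0.20 ± 0.043 and DNAJC28, a J-domain protein, gave -0.22 ± 0.052. In SETMAR, MCF2L-AS1, GPRASP3 and DNAJC28 no array of 1 dose overlapped those of the other. The remaining lower genes were ZFPM2, a cofactor of GATA factors (-0.26 ± 0.058), NDP, a ligand of the Wnt receptor FZD4 (-0.26 ± 0.065), BTN3A3 of the butyrophilins (-0.18 ± 0.043), the endocytic adaptor EPS15L1 (-0.16 ± 0.040) and the neuronal protein ASTN2 (-0.13 ± 0.035). A second probe set of BTN3A3 gave 0.068 ± 0.065 and a second of ASTN2 gave -0.049 ± 0.060. The other probe sets of EPS15L1 gave 0.025 ± 0.056 and -0.086 ± 0.069. Over all genes the 6 arrays of 1 dose did not overlap the 6 of the other for 29 (0.242%). Of these 10 were higher (0.0836%) and 19 lower (0.159%) at 100 µg/ml. Over all probe sets the doses did not overlap for 42 (0.189%).

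**Figure D2:**
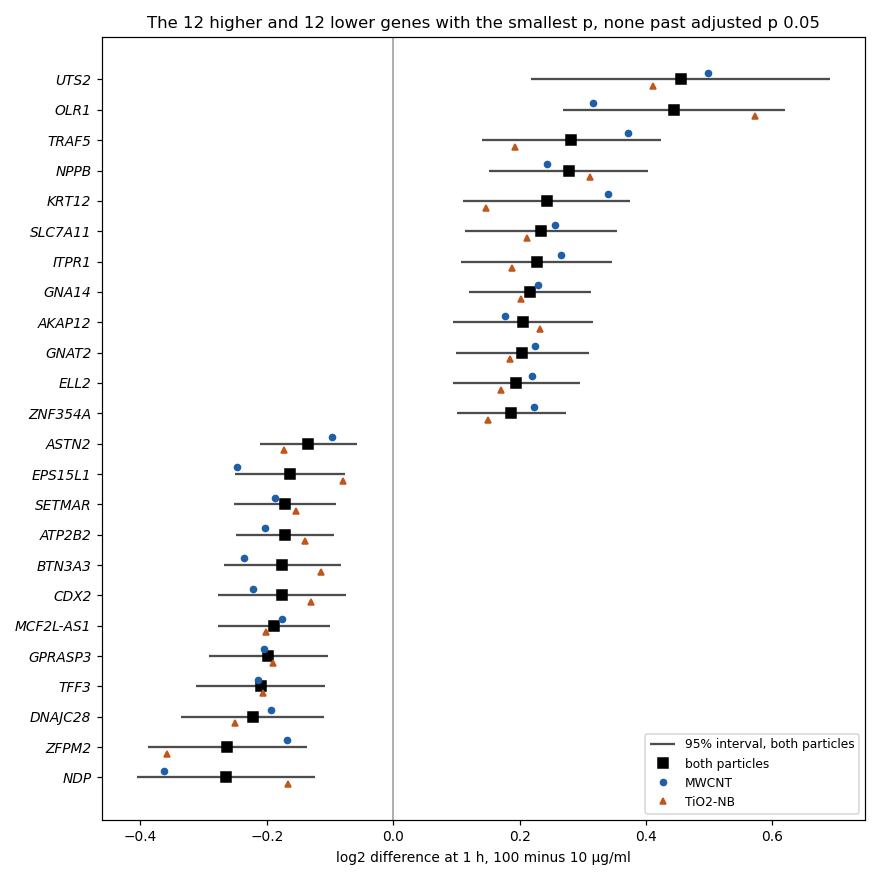
Log2 difference at 1 h, 100 minus 10 µg/ml (x axis), of the 12 higher and 12 lower genes with the smallest p; squares with lines are the pooled difference with its 95% interval, and circles and triangles are MWCNT and TiO2-NB alone. The pooled differences run from -0.26 to 0.45, each particle lies on the same side of 0 for all 24 genes, and none passed the adjusted test. Choice by the pooled p favours genes on the same side with both particles, so the shared side is no independent evidence. Over all genes 52.3% had the same sign.

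With all 30 arrays sharing 1 estimate of the spread, limma called 1 probe set for the pooled dose (0.0045%). This probe set has no gene name in the annotation used and a level near the bottom of the array. It was at 2.47, 2.63 and 2.68 at 10 µg/ml and at 2.82, 2.94 and 3.06 at 100 µg/ml, without overlap. The difference was 0.33 ± 0.048 (adjusted p = 0.00893), and in the fit on the 12 arrays the same difference had an adjusted p of 0.354.

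The doses were next compared within each particle. For MWCNT alone limma passed 0 probe sets (0%), and 1248 (5.62%) had an unadjusted p under 0.05. TiO2-NB alone gave 0 (0%) and 1146 (5.16%) by the same rules. The test of whether the particles differed in their dose effect gave 0 (0%) and 1137 (5.12%). The genes with the smallest p there were DAB1, an adaptor of reelin signalling (MWCNT minus TiO2-NB 0.53 ± 0.11), DEPDC1 (0.39 ± 0.085), the lectin CD209 (0.33 ± 0.071) and the orexin receptor HCRTR1 (0.50 ± 0.11) in 1 direction. In the other they were ZNF234 (-0.42 ± 0.081), RAB9BP1 (-0.48 ± 0.097), BNC1 (-0.46 ± 0.095) and IGSF1 (-0.28 ± 0.064). CD209 gave 0.23 with MWCNT and -0.097 with TiO2-NB on this probe set, and 0.031 and 0.014 on its second. All 8 genes had an adjusted p of 0.867 in limma and levels of at most 6.11 on every array of 1 h.

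The MWCNT and TiO2-NB dose differences come from separate arrays, so their likeness can be described without shared samples. Across 22215 probe sets they correlated at r = 0.044 (Spearman 0.043), and 51.4% had the same sign. Without the third of probe sets with the lowest levels r was 0.129 (Spearman 0.106) with 53.1% of 14810 of the same sign, and over 11963 genes r was 0.0844 with 52.3%. Probe sets are not independent replicates. Most of the spread in a particle's dose difference was thus not shared with the other particle.

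Past 0.2 with both particles there were 13 genes higher and 21 lower at 100 µg/ml, and 5 and 10 in opposite directions. With MWCNT alone 410 genes and with TiO2-NB alone 351 were past 0.2, so the 34 in the same direction are a small part of either. The genes of this set were chosen by their values. On the higher side stood the receptor genes OLR1, LRP1 and LRP12 (0.22 ± 0.061), IFITM1, a membrane protein induced by interferon (0.23 ± 0.075), CXCL8, NPPB, UTS2, SLC7A11, GNA14, HELZ, RPE65, LINC00597 and CEP15. On the lower side stood TFF3, the NADPH oxidase NOX1 (-0.29 ± 0.14) and DNASE1, a secreted nuclease (-0.35 ± 0.10).

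The other lower genes included the plasma proteins FGA (fibrinogen alpha chain, -0.27 ± 0.097), APOH (-0.25 ± 0.12), HPX (hemopexin, -0.25 ± 0.10), ORM1 (an acute phase glycoprotein, -0.29 ± 0.12), KNG1 (kininogen, -0.22 ± 0.079), A2M (a protease inhibitor, -0.21 ± 0.089) and CPB2 (-0.27 ± 0.090). They also included the deacetylase AADAC (-0.30 ± 0.089), TDO2 (-0.38 ± 0.12) and the glucuronosyltransferases UGT2B15 (-0.58 ± 0.18), UGT2B17 (-0.58 ± 0.18) and UGT2B28 (-0.24 ± 0.076), near-identical relatives whose signals the probes may share. The remaining lower genes were KIAA1107, MAN1C1, RAB27A, PALMD, CCDC88C and TXK, and no list of plasma protein genes was counted. UGT2B15 was at 9.43, 9.69 and 10.27 at 10 µg/ml and at 8.67, 9.26 and 9.62 at 100 µg/ml, and the 3 controls were at 9.01, 9.70 and 9.97. The controls alone thus spanned more than the dose difference. Among the arrays of TiO2-NB at 100 µg/ml, UGT2B15 was 8.67 in replicate 1 and 9.62 in replicate 3, and APOH 11.69 and 12.40. The limma adjusted p of all 34 genes was between 0.618 and 0.863.

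**Figure D3:**
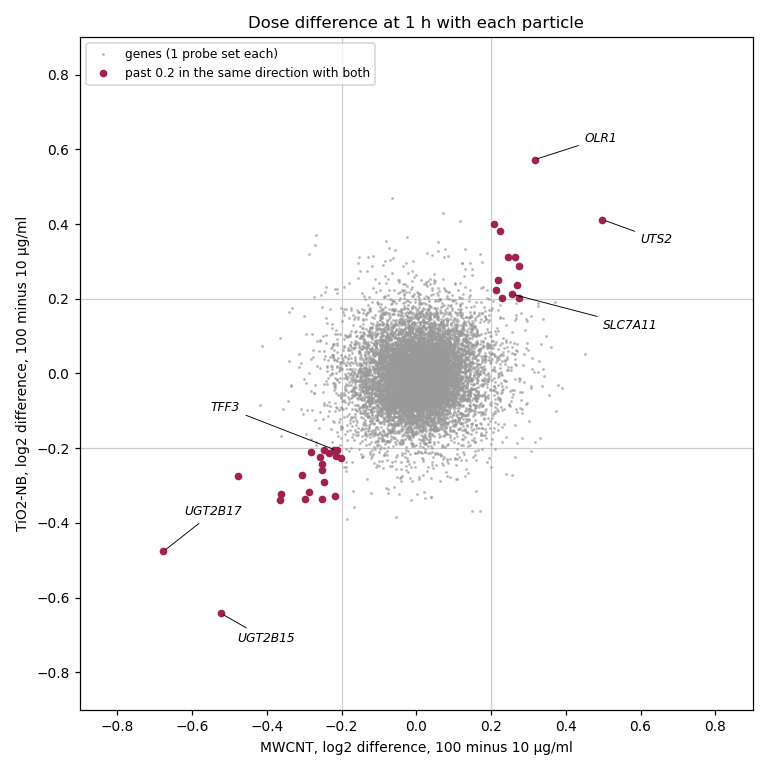
Log2 difference at 1 h, 100 minus 10 µg/ml, with MWCNT (x axis) and with TiO2-NB (y axis) for 11963 genes; grey points are genes, dark points the 34 past 0.2 in the same direction with both particles, and thin lines mark 0.2. The cloud is nearly round (r = 0.0844), with UGT2B15 and UGT2B17 far to the lower left and UTS2 and OLR1 to the upper right.

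Whether transcripts that respond to a particle go farther at the higher dose was asked with separate arrays. Probe sets were chosen that limma called in the same direction at both doses of 1 particle, and the dose difference was then read from the arrays of the other. Of 382 that rose with MWCNT, 270 (70.7%) were higher at 100 than at 10 µg/ml with TiO2-NB, against 48.2% of all probe sets, with a median difference of 0.035 beside a median response of 0.28. Of 323 that rose with TiO2-NB, 208 (64.4%) were higher at 100 µg/ml with MWCNT, against 52.3% of all, with a median of 0.024.

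Of 546 that fell with MWCNT, 341 (62.5%) were lower at 100 µg/ml with TiO2-NB, against 51.8% of all. Of 810 that fell with TiO2-NB, 373 (46.0%) were lower at 100 µg/ml with MWCNT, against 47.7% of all. Probe sets that rose therefore leaned to a farther level at 100 µg/ml with either particle, while those that fell did so with TiO2-NB arrays (chosen with MWCNT) but not with MWCNT arrays. In limma 0 of these probe sets passed for the dose itself. With each array of the dose difference left out in turn, the shares for risen probe sets stayed between 58.8% and 77.7%, and those for probe sets fallen with TiO2-NB ran from 39.3% to 51%. Probe sets share arrays and vary together, so these shares carry no p.

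Gene lists gave the dose difference by function. Of 851 listed genes 745 were measured, 0 passed the adjusted test (limma) and 50 (6.71%) were at an unadjusted p under 0.05, 30 higher and 20 lower, beside 5.73% of all genes. Over all genes the median was -0.0011, with 5875 above 0 and 6088 below. Every list described here overlapped between the doses when its members were averaged on each array.

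Genes of DNA replication stood out as the list with the lowest median. They build the origin complexes, the MCM helicase, the polymerases and the nucleotide supply of S phase, and E2F factors are known to drive many of them. Of 35 measured members 34 lay below 0 at 100 µg/ml and 1, the polymerase subunit POLE, above, with a median of -0.090 (-0.053 for MWCNT and -0.11 for TiO2-NB). In limma 0 passed, while 8 members lower and 0 higher had an unadjusted p under 0.05, beside 3.08% and 2.66% of all genes. POLE2, a subunit of polymerase epsilon, gave -0.18 ± 0.063 and MCM6, a subunit of the helicase, gave -0.12 ± 0.040. PRIM1, which makes the RNA primers, gave -0.11 ± 0.043 and RFC3, a clamp loader subunit, gave -0.15 ± 0.061.

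The promoter of MCM6 is printed because, among the members whose upstream sequence holds the E2F motif, MCM6 had the smallest p. The window is the 250 bases before the gene start in RefSeq (GRCh38.p14, chr2:135876444-135876693, minus strand, upstream of the first exon), in lower case 5′ to 3′, with matches to TTTCGCGC or TTTGGCGC on either strand in capitals; each of the 2 capital stretches is a pair of overlapping matches, 1 per strand.

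MCM6: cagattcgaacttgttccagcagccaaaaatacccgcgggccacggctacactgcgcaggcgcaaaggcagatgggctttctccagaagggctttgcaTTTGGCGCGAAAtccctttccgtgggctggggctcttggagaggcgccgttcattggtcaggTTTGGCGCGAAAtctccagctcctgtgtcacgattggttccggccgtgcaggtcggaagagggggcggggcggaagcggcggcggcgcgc

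Of 37 such windows of 29 measured replication genes 5 held the motif (13.5%: MCM6, MCM7, POLA1, POLA2 and POLE), against 0.968% of all 35116 windows and 1.34% of those of measured genes. The match is a description of the sequence, and POLE, which holds it, was the member above 0. MCM6 was at 10.60, 10.70 and 10.88 on the 10 µg/ml arrays and at 10.51, 10.58 and 10.72 on those of 100 µg/ml, with controls at 10.44, 10.59 and 10.60. The dose groups overlapped, and the medians of the high dose and the control were close.

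Each list was averaged on each array as a deviation from the mean of the gene over the 12 exposed arrays of 1 h. The replication list was at 0.00076 with MWCNT at 10 and -0.058 at 100 µg/ml. With TiO2-NB it was at 0.090 and -0.032, and in the control at 0.0001 (SD within groups 0.079). The 3 control arrays alone ran from -0.14 to 0.11, wider than the dose difference, and the TiO2-NB arrays of 100 µg/ml from -0.11 to 0.048. Without each array in turn the median stayed between -0.11 and -0.069. Mitosis genes did not share the low median: 21 of 35 lay below 0, with a median of -0.0084 (-0.033 to 0.0047 with 1 array left out), ZWINT of the kinetochore at -0.13 ± 0.058 and CENPF at 0.13 ± 0.072.

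Early signalling lists lay above 0. Of 26 immediate early factors 22 were higher at 100 µg/ml, with a median of 0.065. The median was 0.035 without TiO2-NB 10 replicate 3. At an unadjusted p under 0.05, 3 were higher and 0 lower, beside 2.66% and 3.08% of all genes. The 3 were EGR1, FOSL1, an AP-1 subunit (0.16 ± 0.056), and ZFP36, which speeds the decay of AU-rich messages (0.13 ± 0.048). KLF6 gave 0.14 ± 0.066. As group means of the array scores the list was at 0.11 in the control, -0.050 and 0.025 with MWCNT at 10 and 100 µg/ml, and -0.012 and 0.037 with TiO2-NB, so both high dose means lay between the low dose and the control. The TiO2-NB arrays of 10 µg/ml were at 0.013, 0.049 and, in replicate 3, -0.097. Those of 100 µg/ml were at 0.083, 0.024 and 0.0038, so with TiO2-NB the order of the means leaned on replicate 3.

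EGR1 is the member of this list with the largest difference, and its promoter is printed for the CArG box, the site known to bind serum response factor. The window holds the 250 bases before the gene start (RefSeq, GRCh38.p14, chr5:138465229-138465478, plus strand, upstream of the first exon), with the 2 matches on either strand in capitals.

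EGR1: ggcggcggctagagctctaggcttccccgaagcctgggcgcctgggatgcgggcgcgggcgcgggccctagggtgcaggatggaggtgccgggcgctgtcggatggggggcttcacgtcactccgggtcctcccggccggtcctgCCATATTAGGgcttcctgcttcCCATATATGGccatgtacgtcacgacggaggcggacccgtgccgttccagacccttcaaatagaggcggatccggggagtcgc

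Of 23 windows of 19 measured immediate early genes 2 held the box (8.7%, EGR1 and SRF), against 1.16% of all windows and 1.22% of those of measured genes.

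Brakes of the ERK pathway and ligands of the EGF receptor were above 0 for 16 of 18 members, with a median of 0.069 (0.11 for MWCNT and 0.036 for TiO2-NB). Without TiO2-NB 10 replicate 3 the median was 0.042, and with any 1 array left out 13 to 17 members were above 0. SPRY4, an inhibitor of receptor tyrosine kinase signalling, gave 0.17 ± 0.055, from 7.74 to 7.98 at 10 and from 7.98 to 8.16 at 100 µg/ml. The phosphatases DUSP10 and DUSP5 gave 0.17 ± 0.082 and 0.14 ± 0.068, and SPRED2 gave 0.11 ± 0.056. Of 14 clock genes 13 were above 0, with a median of 0.059, or 0.044 without TiO2-NB 10 replicate 3. The repressors BHLHE41 (0.17 ± 0.069) and BHLHE40 had the smallest p. The clock list was at -0.14 in the control and at -0.031 and 0.044 with MWCNT and -0.040 and 0.027 with TiO2-NB at the rising doses, so here the high dose means lay farther from the control. The TiO2-NB arrays of 10 µg/ml were at 0.010, -0.020 and, in replicate 3, -0.11. Those of 100 µg/ml were at 0.030, 0.041 and 0.0099, so the low dose mean leaned on replicate 3.

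Of 27 hypoxia and glycolysis genes 23 were above 0, with a median of 0.040. The median was 0.020 without TiO2-NB 10 replicate 3, 0.023 without MWCNT 10 replicate 1, 0.027 without TiO2-NB 100 replicate 1 and 0.061 without MWCNT 100 replicate 2. The glycolytic enzymes PKM (0.13 ± 0.049), HK2 (0.18 ± 0.079) and GPI (0.10 ± 0.045) and the growth factor VEGFA (0.12 ± 0.056) had the smallest p. Of 18 genes of ATF4 and the integrated stress response 12 were above 0, with a median of 0.046, which was 0.030 without TiO2-NB 10 replicate 3 and 0.086 without MWCNT 100 replicate 2. SLC7A11 led that list, and PHGDH, which opens serine synthesis, lay on the other side at -0.11 ± 0.049. Oxidative stress and NRF2 genes were above 0 for 15 of 22 with a median of 0.029. Without MWCNT 100 replicate 2 that median was 0.0088, without MWCNT 10 replicate 1 0.012, without TiO2-NB 10 replicate 3 0.016, without TiO2-NB 100 replicate 1 0.017 and without its replicate 3 0.046, and as few as 12 members were above 0. AKR1B10, an aldo-keto reductase, gave 0.34 with MWCNT and -0.0064 with TiO2-NB.

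Metallothioneins and zinc transporters differed most between the particles in median, 0.14 for MWCNT and -0.020 for TiO2-NB. MT1F, a metal-binding protein, gave 0.24 and 0.025, MT2A gave 0.20 and 0.0090, and the zinc exporter SLC30A1 gave 0.077 and 0.11. The test of a difference between the particles passed for none of the 10 members (MT1F 0.21 ± 0.093, limma adjusted p = 0.967). With MWCNT the list was at -0.11 at 10 and at 0.013 at 100 µg/ml as a group mean, where the control was at -0.041.

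Other lists held single members of note. FASN, the fatty acid synthase, gave 0.15 ± 0.043 in a sterol and fatty acid list with 17 of 21 above 0 (median 0.035, or 0.022 without TiO2-NB 10 replicate 3). MSN, the membrane to actin linker moesin, gave 0.22 ± 0.079, while the actin list had a median of 0.0097, which ran from 0.0043 to 0.018 with 1 array left out. PMAIP1, a BH3-only protein that promotes apoptosis, gave 0.23 ± 0.084 in a BCL2 family with 7 of 13 above 0. DSG2, a desmosomal cadherin, gave 0.097 ± 0.041 and NECTIN2, an adhesion receptor, gave -0.072 ± 0.031 without overlap, in a junction list with 16 of 20 above 0. The junction median was 0.048, 0.021 without TiO2-NB 10 replicate 3 and 0.029 without TiO2-NB 100 replicate 1.

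The lists of energy and protein synthesis were tightest around 0. Cytosolic ribosomal proteins had a median of -0.0068, and the largest bound of any member's 95% interval was 0.10. Oxidative phosphorylation had a median of -0.013 with 14 of 37 above 0 and its widest bound was 0.13. Heat shock chaperones had a median of -0.012 and genes of the unfolded protein response -0.0015. NF-kB and inflammation genes were split 13 and 13 around a median of -0.0037, with CXCL8 the member farthest from 0. Aryl hydrocarbon receptor targets were split 4 and 4. Endocytosis genes, led by LRP1, had a median of 0.018 and lysosomal genes -0.023, where the cholesterol exporter NPC1 gave 0.13 ± 0.050. With 1 array left out the heat shock, unfolded protein response and NF-kB medians took either sign, between -0.014 and 0.020. The lysosomal median ran from -0.039 to -0.012 and that of endocytosis from 0.011 to 0.022.

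**Figure D4:**
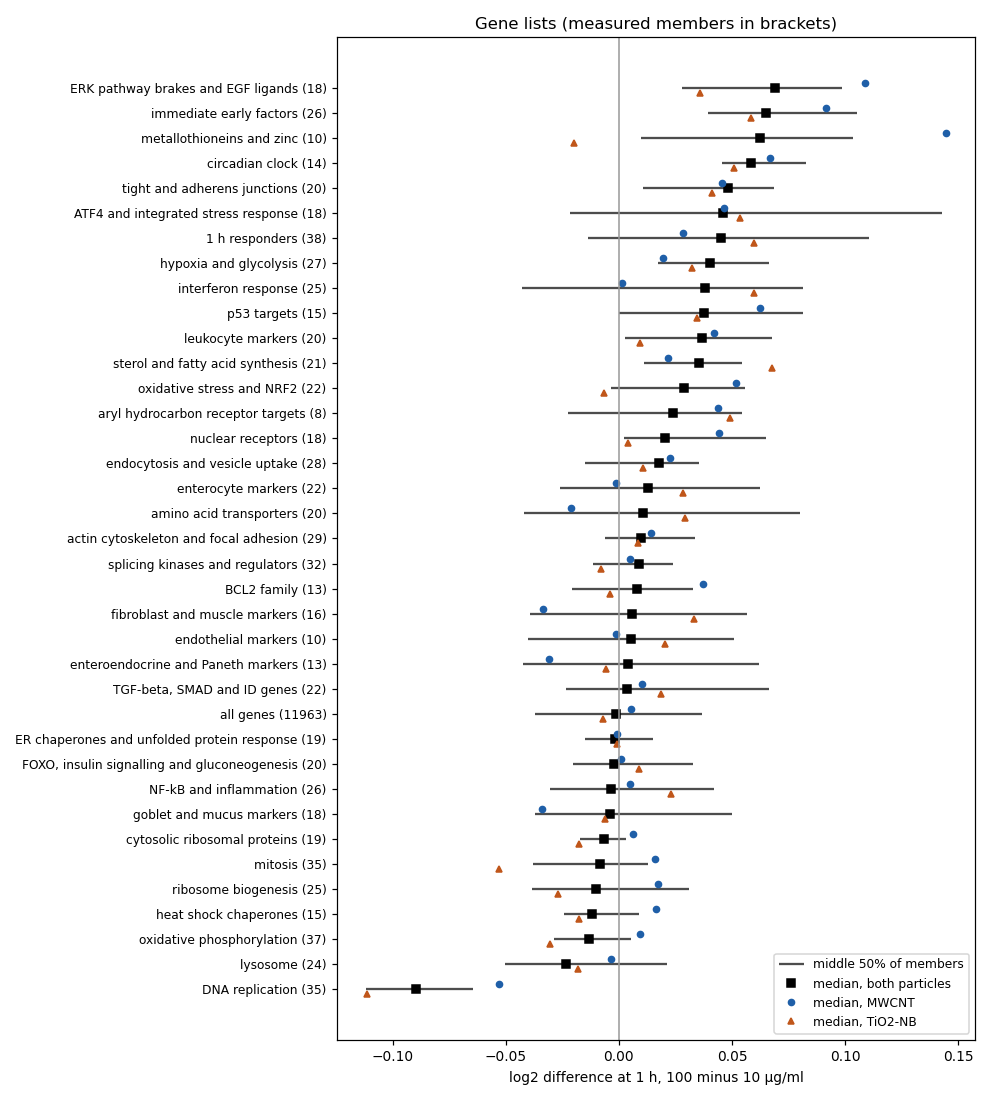
Median log2 difference at 1 h, 100 minus 10 µg/ml (x axis), of the members of 36 gene lists and of all genes; squares are both particles, lines the middle 50% of members, and circles and triangles MWCNT and TiO2-NB alone. DNA replication is lowest at -0.090, ERK pathway brakes (0.069) and immediate early factors (0.065) are highest, and most lists lie within 0.05 of the all-gene median of -0.0011.

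Markers of the cell types were read for both lines and for cells the culture should lack. Levels here are means over the 12 arrays. Of 22 enterocyte markers 18 were above the median gene, up to APOA1 at 14.08, FABP1 at 13.87 and the microvillus protein VIL1 at 11.92. The other 4, FABP2 (5.57), TREH (5.78), MGAM (5.97) and SLC5A1 (7.05), were below it. Of 18 goblet and mucus markers 8 were above the median gene, with AGR2 at 13.11 and TFF1 at 12.79. The 10 below it included the gel-forming mucins MUC2 (6.02) and MUC5AC (6.72). Between doses 13 of 22 enterocyte markers were above 0 (median 0.013) and 8 of 18 goblet and mucus markers (median -0.0038), both medians taking either sign with 1 array left out, and besides CDX2 and TFF3 the members with the smallest p were TREH, a brush border enzyme (-0.14 ± 0.052), and TFF2. Leukocyte markers were above 0 for 16 of 20 with a median of 0.037, which was 0.014 without TiO2-NB 10 replicate 1 and 0.061 without its replicate 3. As a group mean the list ran from -0.068 with MWCNT at 10 to 0.039 with TiO2-NB at 100 µg/ml and was at -0.043 in the control. In level, 18 of 20 leukocyte markers were below the median gene (PTPRC 3.66), and LYZ (11.28) and AIF1 (8.72) were above it. Of 10 endothelial markers 9 were below it (CDH5 3.18) and EGFL7 (8.29) above. Of 16 fibroblast and muscle markers 13 were below it (COL3A1 3.96), and FN1 (12.84), LUM (7.71) and COL1A1 (7.68) were above.

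At 24 h the same pooled comparison gave calls. With all 30 arrays in the fit, limma called 405 probe sets (1.82%), of which 22 (0.099%) were higher and 383 (1.72%) lower at 100 µg/ml, and 63 differed at least 1.5-fold. For TiO2-NB alone 406 passed at 24 h (1.83%). For MWCNT alone 0 passed (0%), with 1478 (6.65%) at an unadjusted p under 0.05. The test of the change of the dose effect from 1 h to 24 h called 7 probe sets (0.0315%), all lower at 24 h, and 2084 (9.38%) were at an unadjusted p under 0.05. These 7 calls lay close to the threshold, and their number changed with the array left out. No array of 24 h was left out, so the part of single 24 h arrays in these and the 405 calls was not tested. Leaving out 1 array of 1 h gave 65 calls without TiO2-NB 10 replicate 2 and 3 without replicate 1 of TiO2-NB 10 or of MWCNT 10. It gave 1 call without TiO2-NB 10 replicate 3, and 0 without MWCNT 10 replicate 2 or 3, any MWCNT array of 100 µg/ml, or TiO2-NB 100 replicate 2 or 3.

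The 7 belonged to MYO6, ANK3, LRRFIP1, PAWR, TGFBR3, RAP2A and the same unnamed probe set. MYO6, a myosin that moves towards the minus end of actin and serves endocytosis in the brush border, was at 6.92, 7.51 and 7.66 at 10 µg/ml and at 7.18, 7.53 and 7.91 at 100 µg/ml at 1 h. At 24 h it was at 6.39, 6.88 and 7.23 and at 5.06, 6.22 and 7.18. The dose difference went from 0.10 ± 0.098 to -0.71 ± 0.098, a change of -0.82 ± 0.14 (limma adjusted p = 0.0427). This was not the probe set that stands for MYO6 by its level; on that one the change was -0.062 (limma adjusted p = 0.749) and on the third -0.055.

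ANK3, an ankyrin that ties membrane proteins to spectrin, changed by -0.72 ± 0.13 (limma adjusted p = 0.0494), from 0.16 at 1 h to -0.56 at 24 h. This too was a probe set of lower level than the main one. The main ANK3 probe set changed by -0.065 (limma adjusted p = 0.766) and the third by -0.64 (limma adjusted p = 0.0779). LRRFIP1, a regulator of transcription, changed by -0.52 ± 0.095 on a probe set that is not its main one. The main one changed by -0.23 (limma adjusted p = 0.299) and the others by -0.11 and 0.15. TGFBR3, the betaglycan coreceptor of TGF-beta, changed by -0.35 ± 0.064. PAWR, a promoter of apoptosis, changed by -0.37 ± 0.063 on its main probe set and by -0.072, 0.040 and 0.093 on the others. RAP2A, a small GTPase, changed by -0.35 ± 0.064 on its main probe set and by 0.13 on the other. None of these other probe sets passed. At 24 h the TiO2-NB part of the dose difference in the 6 called probe sets with a gene name ran from -0.34 to -1.23. The MWCNT part ran from -0.095 to -0.19. For the unnamed probe set the change was -0.40 ± 0.068, and its 24 h difference was -0.066.

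**Figure D5:**
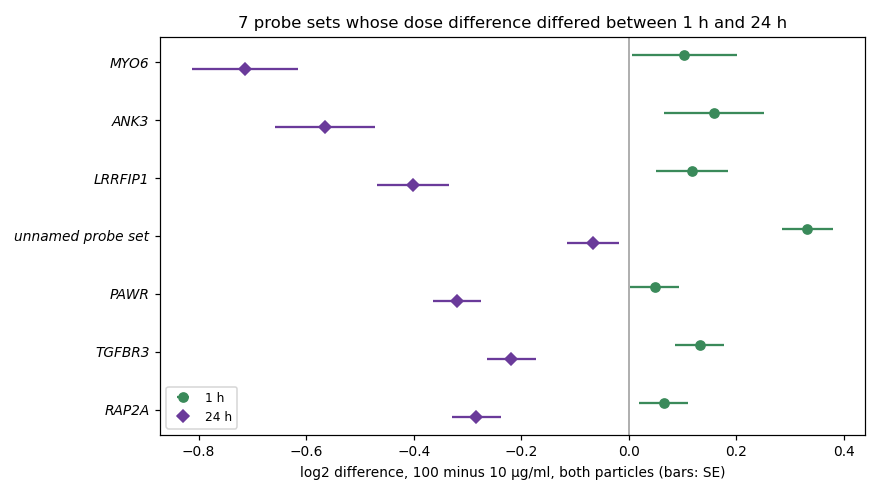
Log2 difference, 100 minus 10 µg/ml over both particles (x axis), at 1 h (circles) and 24 h (diamonds) for the 7 probe sets whose dose difference changed between the times; bars are the standard error. At 1 h the differences lie between 0.048 and 0.33 and at 24 h between -0.71 and -0.066.

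Of the genes with the smallest p in the other direction CCL20, a chemokine for immature dendritic cells, changed by 0.44 (limma adjusted p = 0.0599) and did not pass. EPS15L1, the vascular gene APOLD1 and the muscle light chain MYL1 followed. Of the 12 higher genes with the smallest p at 1 h, 10 lay above 0 at 24 h and 8 past 0.1, with UTS2 at 0.36, GNA14 at 0.19 ± 0.064, AKAP12 at 0.18, KRT12 at 0.17 ± 0.053, OLR1 at 0.15, NPPB at 0.15, TRAF5 at 0.12 and SLC7A11 at 0.10. Of the 12 lower genes 7 lay below 0 and 1 past 0.1, GPRASP3 at -0.16 ± 0.047, with TFF3 at -0.052 and CDX2 at 0.044. In limma 0 of the 24 passed at 24 h (smallest adjusted p 0.106) and 0 passed for the change from 1 h (smallest 0.0779). CXCL8 had 0.29 at 24 h (limma adjusted p = 0.25).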

How the data were processed

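RNA of 30 wells was measured on Affymetrix arrays with 22277 probe sets. The authors deposited log2 expression values, and RMA, a background correction, quantile normalization and probe summary, is named per the submitters' processing notes; its version and settings are not stated there. RMA shares 1 distribution among arrays, so a shift of all transcripts would not be seen. The number of arrays limits the precision. From these values 62 control probe sets were left out and 22215 tested with limma 3.58.1 in R 4.3.3 and Benjamini-Hochberg adjustment, as dose plus particle on 12 arrays. Interactions and values against the control came from group means on 12 or 30 arrays. A gene was read from its probe set with the highest mean, 11963 genes in all. 19064 probe sets had 1 gene symbol, 1043 several and 2108 none. The named genes are the 12 per direction with the smallest p (4 for each interaction and 4 per list), the responders listed and exceptions stated in the text. The members and lists were chosen with earlier results of these data known. Scripts were tested on simulated data. Alternatives were other variance settings, filters, fits and each exposed array of 1 h left out in turn. For the responder shares the controls of 1 h were also left out in turn. No array of 24 h was left out.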

Additional observations from a re-analysis of the deposited data

Results flagged for a closer look

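The change of the dose difference from 1 h to 24 h (100 minus 10 µg/ml, both particles, limma on 30 arrays) passed the adjusted test for 7 probe sets. The change was -0.82 for MYO6, -0.37 for PAWR and -0.40 for 1 unnamed probe set (limma adjusted p = 0.0427 each). It was -0.72 for ANK3, -0.52 for LRRFIP1, -0.35 for TGFBR3 and -0.35 for RAP2A (limma adjusted p = 0.0494 each). All 7 are close to the threshold of 0.05, and the number of calls changed when single arrays of 1 h were left out. In the alternatives run their limma adjusted p rose to as much as 0.13. No array of 24 h was left out. Other probe sets of MYO6, ANK3, LRRFIP1, PAWR and RAP2A did not pass.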

How the results depend on the processing

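The count of probe sets called for the pooled dose was 0 in every alternative run except with all 30 arrays, where it was 1, and 0 with any array left out (0 to 0). For MWCNT alone, TiO2-NB alone and their difference it was 0 in all alternatives run. The list genes at an unadjusted p under 0.05, 50 as reported, were 79 with 30 arrays, 83 with an intensity trend and robust variances and 84 with array weights. Leaving out 1 array gave 30 to 85: 85 without MWCNT 100 replicate 2, 76 without TiO2-NB 10 replicate 2 and 30 without TiO2-NB 10 replicate 3. The unadjusted count over all features, 1279 of 22215 probe sets, was 1629 (7.33%) with 30 arrays and 1979 with array weights. Leaving out 1 array gave 991 to 1633. With 1 probe set per gene it was 731 of 11963 genes, a smaller set of features. The 24 named dose differences kept their direction in all alternatives run. They were chosen by the smallest p on these same arrays, and several alternatives return the same estimate by design. The kept direction is thus no independent support.

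The 7 time-dependent calls were 3 on the 24 exposed arrays and 47 with replicate number as a block. Replicate numbers did not pair the arrays: 1 of 18 pairs of same-numbered arrays had deviations correlated above 0.1, and 3 of 12 arrays correlated best with their own number; the block left 0 calls for the pooled dose and 51 list genes. Leaving out 1 array of 1 h gave 0 to 65 calls: 65 without TiO2-NB 10 replicate 2, 3 without replicate 1 of MWCNT 10 or TiO2-NB 10, 1 without TiO2-NB 10 replicate 3, and 0 without MWCNT 10 replicate 2 or 3, any MWCNT 100 array, or TiO2-NB 100 replicate 2 or 3. The correlation of the particles' differences, 0.044, was 0.129 without the probe sets of lowest level and 0.0844 per gene, both chosen after seeing the data, as was leaving arrays out of the responder shares, where those fallen with TiO2-NB ran from 39.3% to 51%, the latter without MWCNT 100 replicate 1. The causes were not tested.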
